A study of Mus musculus with 6 samples.

Results

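Keratins are the intermediate filament proteins of epithelial cells. A filament is built from pairs of a type I and a type II keratin, and different epithelia use different pairs: Krt8 (type II) with Krt18 (type I) is the basic pair of simple, single-layered epithelia, commonly joined by Krt7 (type II) and Krt19 (type I), whereas Krt5 (type II) with Krt14 (type I) marks the basal layer of stratified epithelia. The ovarian surface epithelium, the mesothelium-like layer over the ovary, is known for simple keratins together with vimentin. The 10 keratin genes described here were chosen by name, with earlier results of these data known. They are the simple-epithelial Krt7, Krt8, Krt18 and Krt19, and the basal and other keratins Krt5, Krt14, Krt15, Krt17, Krt20 and Krt23. All 10 had a probe set that names a single gene, among 18194 genes so represented, and 38 further keratin genes were on the array.

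RNA was measured on 6 single-colour Affymetrix arrays. The cells were mouse ovarian surface epithelial tumour cells, freed with trypsin, grown with serum and insulin-transferrin-selenium, and collected without passage. The labels of 2 groups give them the R172H mutation of p53, a transcription factor that restrains the cell cycle: homozygous R172H (2 arrays, both from animals of 4 weeks) and heterozygous R172H, with a wild-type allele beside it (2 arrays, 9 and 12 weeks). The third was wild-type p53 (2 arrays, both 9 weeks). A second label of the homozygous cells names Trp63 in place of Trp53, and their titles were followed. All 3 groups were labelled P/K and of mixed background strain; the labels do not spell out P/K, nor do they name a promoter or Cre line, and the mutated transcript itself was not analysed here. Genotype and age cannot be told apart for the homozygous cells, and with 2 arrays a group the p-values measure only the spread between these arrays, and the labels do not state how the arrays of a pair were drawn from animals.

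The homozygous arrays differed from the other 4 and also between themselves. Over 10916 tested genes, the paired arrays of a genotype differed on the log2 scale with an SD of 1.30 in homozygous, 0.55 in heterozygous and 0.60 in wild-type cells. Median signals lay between 41.1 and 60.6 in all 6 arrays, against a background level of 24.5, the highest value of the bacterial Trpn control probe sets. For Actb, whose 3' and 5' control probe sets read RNA integrity, log2 of the 3' signal exceeded log2 of the 5' signal by 0.59 and 0.39 in homozygous arrays, by 0.66 and 0.96 in heterozygous arrays and by 0.77 and 0.74 in wild-type arrays. Of 10 markers of the surface epithelium and mesothelium, 9 were above background in both homozygous arrays, against 10 in each other group. Their summed signal was 25083 and 62345 in homozygous arrays, against 99517 to 110270 in heterozygous and 109820 to 126911 in wild-type arrays. Of these 10 markers, all tested, 2, Upk1b and Lhx9, fell in homozygous against wild-type cells by limma (adjusted p = 0.0270 and 0.0110). Over all tested genes 2.67% were called in this comparison. Every call of this comparison, over all genes, was lost when either wild-type or either heterozygous array was left out, where 0 genes passed.

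The simple keratins are shown first as genes, because Krt18 was high relative to its partner Krt8 in homozygous array 1. On the log2 scale, relative to the wild-type mean, this difference was 4.61 there and 0.82 in homozygous array 2. It was chosen after the values were seen and was not tested. Krt7 lies at 101412403 to 101427806 of chromosome 15, Krt8 at 101996711 to 102004342 and Krt18 at 102028216 to 102032026 (RefSeq, build GRCm38.p6). Krt18 is the type I keratin that sits in the type II cluster, 23873 bases from Krt8, and Krt19 lies with the other type I members on chromosome 11, at 100140810 to 100145926. Of the others, Krt5 lies on chromosome 15 at 101707069 to 101712905. On chromosome 11 are Krt14 at 100203162 to 100207510, Krt15 at 100131759 to 100135949, Krt17 at 100256215 to 100261029, Krt20 at 99428385 to 99438153 and Krt23 at 99477973 to 99493120. The 250 bases before the RefSeq start of the 3 chromosome 15 genes follow, read 5′ to 3′ on the strand of the gene, with matches to the E-box CAGGTG and the GC box GGGCGG on either strand in capitals.
Krt7 (chr15:101412153-101412402, plus strand): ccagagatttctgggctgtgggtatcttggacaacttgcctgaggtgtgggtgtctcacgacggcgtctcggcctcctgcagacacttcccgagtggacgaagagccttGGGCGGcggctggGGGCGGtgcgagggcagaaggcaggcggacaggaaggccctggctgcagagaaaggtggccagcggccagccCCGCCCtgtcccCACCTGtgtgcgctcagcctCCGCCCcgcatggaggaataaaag
Krt8 (chr15:102004343-102004592, minus strand): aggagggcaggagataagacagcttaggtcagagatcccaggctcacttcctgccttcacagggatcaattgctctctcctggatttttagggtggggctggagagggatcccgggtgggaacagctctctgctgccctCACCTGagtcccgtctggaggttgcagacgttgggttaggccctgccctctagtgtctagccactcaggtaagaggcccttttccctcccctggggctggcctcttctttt
Krt18 (chr15:102027966-102028215, plus strand): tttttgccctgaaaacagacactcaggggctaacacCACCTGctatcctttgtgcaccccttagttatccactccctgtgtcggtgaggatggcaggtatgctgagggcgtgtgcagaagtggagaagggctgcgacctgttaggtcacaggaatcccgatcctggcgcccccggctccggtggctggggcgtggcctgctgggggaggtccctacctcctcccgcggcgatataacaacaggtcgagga

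Each of these 3 windows holds the E-box CAGGTG once, a sequence that Snail and ZEB repressors are known to bind. Of the 10 members 7 had a window in the RefSeq table, and 5 of these held this E-box, against 17.2% of 32817 windows of the same length; the others were Krt5 and Krt23. The GC box, bound by Sp1-family factors, had 4 matches in Krt7 and was in 1 of 7 member windows, against 32.7% of all. The AP-1 motif TGANTCA was in 0 of 7 member windows (6.75% of all), and the p53 half-site was in 1 of 7, that of Krt5 (7.12% of all). Both strands were searched; the motifs did not overlap each other in the printed windows. A match is a description of the letters and not evidence of binding.

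Krt7, a type II keratin of simple and glandular epithelia, was the member whose signal differed most between the groups. Its signal was 60.5 and 1729 in homozygous arrays, 16318 and 11838 in heterozygous arrays, and 17640 and 17717 in wild-type arrays. Both homozygous arrays lay far below the other 4, which were close together, and they also differed 28.6-fold from each other; in array 1 the signal was near background. The geometric mean was 324 in homozygous cells, 13899 in heterozygous cells and 17678 in wild-type cells (SD of log2 3.42, 0.33 and 0.0044, n = 2 each). By limma the log2 difference was -5.77 ± 1.51 (SE) for homozygous minus wild-type cells (Benjamini-Hochberg adjusted p = 0.0937) and -5.42 ± 1.51 for homozygous minus heterozygous cells (adjusted p = 0.0923), so neither passed the threshold of 0.05 over all tested genes. This SE is pooled over all groups, although the spread of Krt7 lay mostly in the homozygous pair. In bulk RNA fewer cells of a type and less RNA per cell cannot be told apart.

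Krt8, the type II partner in the basic simple-epithelial pair, was also lower in homozygous cells. Its signal was 1541 and 4728 in homozygous arrays, 15949 and 9055 in heterozygous arrays, and 8720 and 19255 in wild-type arrays. The homozygous arrays lay below all the others, whereas the heterozygous and wild-type arrays overlapped. The log2 difference by limma was -2.26 ± 0.69 against wild-type cells (adjusted p = 0.116) and -2.15 ± 0.69 against heterozygous cells (adjusted p = 0.116), a signal 4.80-fold and 4.45-fold lower. The other 2 probe sets of Krt8 gave -2.18 and -2.29 against wild-type cells, and in both the homozygous arrays were the lowest. Both are of the Affymetrix class that can also detect related sequences, so their signal may include near-identical keratins.

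Krt18, the type I partner of Krt8, did not follow it. Its signal was 25436 and 5623 in homozygous arrays, 11707 and 6729 in heterozygous arrays, and 6247 and 12233 in wild-type arrays. Homozygous array 1 had the highest and homozygous array 2 the lowest signal of the 6, so the homozygous group overlapped both others. The log2 difference was 0.45 ± 0.80 against wild-type cells (adjusted p = 0.735 by limma), with a 95% interval from -1.58 to 2.48, and 0.43 ± 0.80 against heterozygous cells (adjusted p = 0.746). Without homozygous array 1 it was -0.64, and without wild-type array 1 it was -0.033. Krt18 had a single probe set, so no second probe set could check it.

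**Figure D1:**
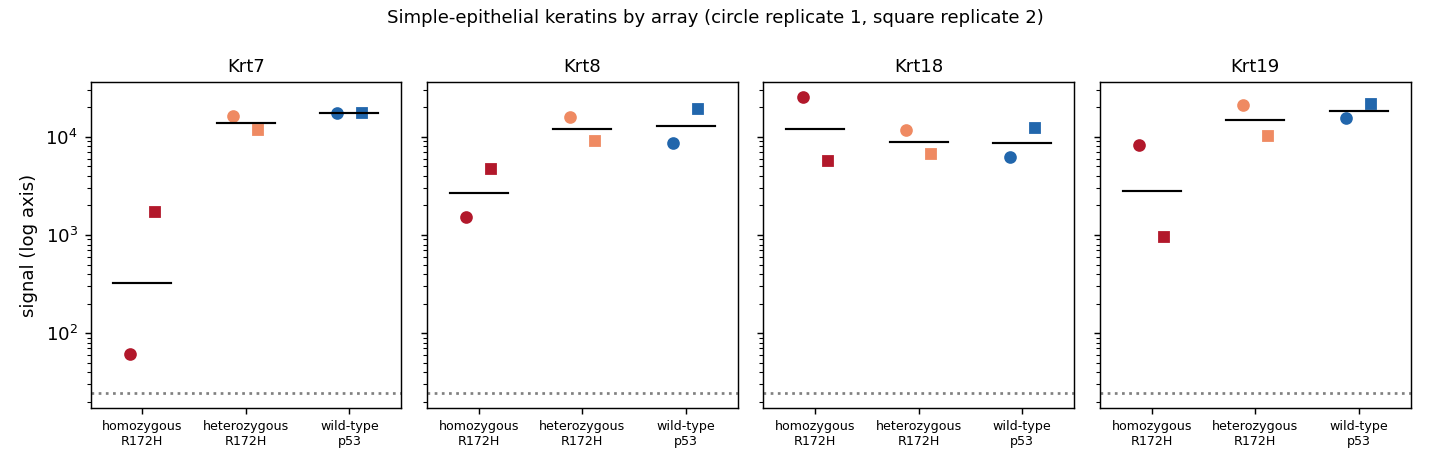
Signal of Krt7, Krt8, Krt18 and Krt19 (log axis) in the homozygous, heterozygous and wild-type arrays; points are arrays, black lines geometric means of 2 arrays, and the dotted line the background level of 24.5. The homozygous points of Krt7, Krt8 and Krt19 all lie below the other groups, and those of Krt18 lie on both sides of them.

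Within the heterozygous and wild-type arrays Krt18 and Krt8 kept a steady ratio. Taking log2 Krt18 minus log2 Krt8 in each array, and setting its mean over the wild-type arrays to 0, the heterozygous arrays lay at 0.12 and 0.14 and the wild-type arrays at 0.087 and -0.087. These 4 arrays spanned only 0.23 on the log2 scale, although Krt8 itself differed 2.21-fold between the wild-type arrays and 1.76-fold between the heterozygous ones. The homozygous arrays lay at 4.61 and 0.82, above all 4. Relative to Krt8, Krt18 was thus 24.5-fold higher than the wild-type mean in homozygous array 1 and 1.76-fold higher in array 2. With the other Krt8 probe sets, which can also detect related sequences, the values were 4.71 and 0.78, or 4.52 and 0.75. The other 4 arrays then spanned 0.37 and 0.31. Krt18 was also high against Krt7, at 9.73 and 2.72 in homozygous arrays 1 and 2, and against Krt19, at 2.68 and 3.63. The other 4 arrays spanned 1.02 and 0.71 in these contrasts. The contrast with Krt8 was chosen after the values were seen, and none of the contrasts was tested. With 2 arrays against 2, an exact two-sided permutation p cannot fall under 0.333.

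**Figure D2:**
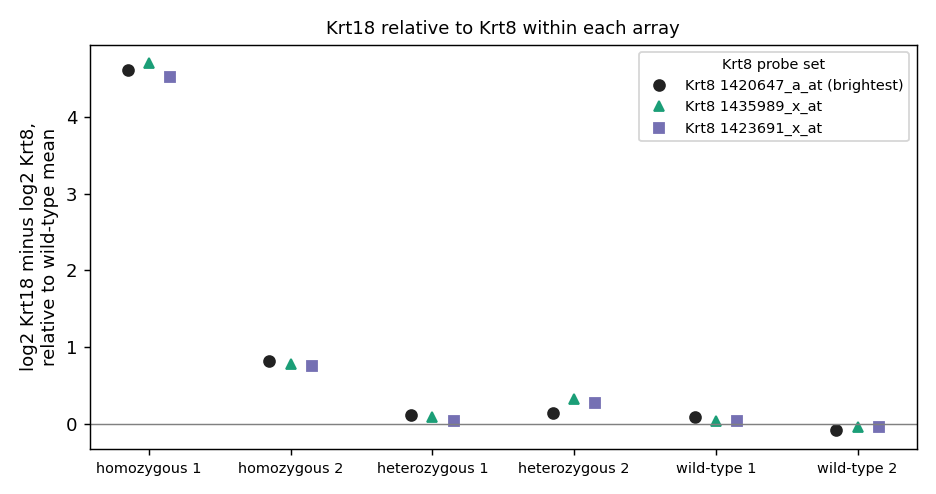
Log2 signal of Krt18 minus that of Krt8 in each of the 6 arrays, relative to the mean of the wild-type arrays, for each of the 3 Krt8 probe sets. Homozygous array 1 stands above 4.5, homozygous array 2 between 0.75 and 0.82, and the heterozygous and wild-type arrays lie near 0.

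Krt19, the type I keratin without a tail domain that joins Krt7 or Krt8 in ducts and simple epithelia, was lower in homozygous cells, but in the opposite array from Krt7 and Krt8. Its signal was 8282 and 947 in homozygous arrays, 21132 and 10233 in heterozygous arrays, and 15517 and 21496 in wild-type arrays. Homozygous array 2 was the lowest by far, array 1 lay a little under the lowest of the others, and the heterozygous and wild-type arrays overlapped. The log2 difference by limma was -2.71 ± 1.05 against wild-type cells (adjusted p = 0.167) and -2.39 ± 1.05 against heterozygous cells (adjusted p = 0.194). The homozygous arrays thus did not share an order over the simple keratins: Krt7 and Krt8 were lower in array 1, by 28.6-fold and 3.07-fold, and Krt18 and Krt19 were lower in array 2, by 4.52-fold and 8.75-fold. The median gene differed 1.34-fold between these arrays.

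Of the basal and other keratins only Krt14 reached the signal needed for a test, a geometric mean of at least 60.2. Krt14, the type I partner of Krt5 in basal cells, had signals of 28.8 and 56.1 in homozygous arrays, 110 and 102 in heterozygous arrays, and 122 and 146 in wild-type arrays. These are dim signals, a few times background or less, and the homozygous arrays lay below the others without overlap. The log2 difference by limma was -1.73 ± 0.37 against wild-type cells (adjusted p = 0.0692) and -1.40 ± 0.37 against heterozygous cells (adjusted p = 0.0866), with the smallest error of the tested members. Krt14 reached the limit for testing only through its heterozygous and wild-type arrays, both homozygous arrays being under it, so a lower homozygous value came with its selection and the fit is given as a description. The probe set used is of the Affymetrix class that can also detect related sequences, so its signal may include near-identical keratins. A second Krt14 probe set gave 4.33 and 27.1 in homozygous arrays, 89.9 and 53.2 in heterozygous arrays, and 85.7 and 76.6 in wild-type arrays, with the homozygous arrays again lowest. The third was under background in every array.

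Krt5, the type II basal keratin, was dim throughout. Its signal was 38.7 and 51.4 in homozygous arrays, 61.3 and 54.5 in heterozygous arrays, and 81.4 and 53.3 in wild-type arrays. All 6 values were above background, and the homozygous arrays lay only just under the others. With a geometric mean of 55.4 it was the member closest under the limit for testing, and Krt14 at 82.8 was the closest above it.

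Krt17, a type I keratin of skin appendages and injured epidermis, was above background only outside the homozygous cells. Its signal was 20.0 and 5.31 in homozygous arrays, 75.5 and 45.4 in heterozygous arrays, and 93.2 and 36.5 in wild-type arrays. With both homozygous arrays under background, the signal was at least 2.38-fold lower than in wild-type and at least 2.39-fold lower than in heterozygous cells, and it had no test. A second Krt17 probe set was under background in every array.

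Krt23, a type I keratin, lay higher in homozygous than in wild-type cells. Its signal was 446 and 68.4 in homozygous arrays, 16.4 and 120 in heterozygous arrays, and 39.98 and 3.79 in wild-type arrays. The homozygous arrays lay above both wild-type arrays, but array 2 was below heterozygous array 2. The signal differed 6.52-fold, 7.35-fold and 10.5-fold within the homozygous, heterozygous and wild-type pair, and it had no test.

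Krt15 and Krt20 were dim, and no group had all its arrays apart from both other groups. Krt15, a type I keratin of basal and hair follicle cells, had 72.3 and 49.0 in homozygous arrays, 3.43 and 44.9 in heterozygous arrays, and 88.3 and 4.26 in wild-type arrays. Heterozygous array 1 and wild-type array 2 were under background, the homozygous arrays lay between the wild-type ones, and both were above the heterozygous arrays. Krt20, a type I keratin of gut and urothelium, had 4.13 and 16.3 in homozygous arrays, 32.3 and 19.3 in heterozygous arrays, and 25.4 and 4.98 in wild-type arrays, with 2 of 6 values above background.

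**Figure D3:**
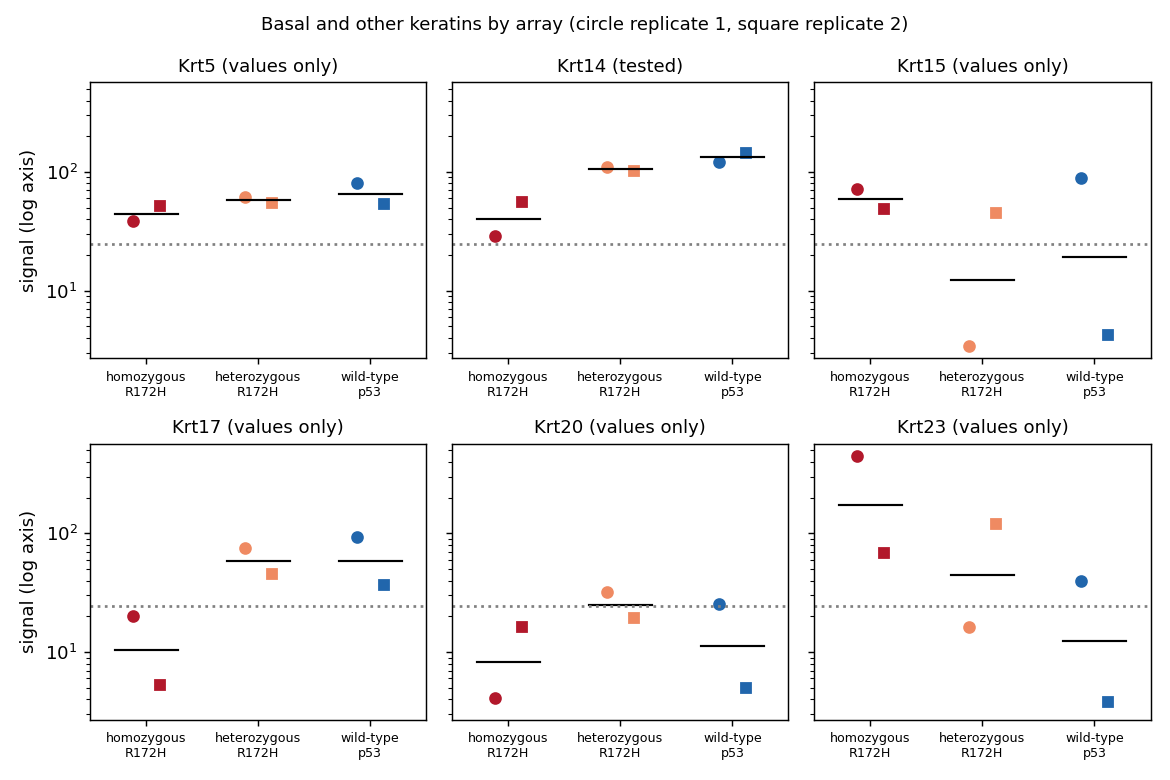
Signal of Krt5, Krt14, Krt15, Krt17, Krt20 and Krt23 (log axis) in homozygous, heterozygous and wild-type arrays; points are arrays, black lines geometric means of 2 arrays and the dotted line the background level of 24.5. Krt14 and Krt17 are lowest in homozygous cells, Krt23 reaches 446 in homozygous array 1, and Krt15 and Krt20 scatter around background.

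Counted together, 5 of the 10 members were tested and 0 passed limma's test in any comparison. For homozygous minus wild-type cells 2.67% of all 10916 tested genes passed. Leaving Krt14 aside for how it was selected, 3 of the 4 simple keratins, Krt7, Krt8 and Krt19, lay lower at an unadjusted p under 0.05, against 17.2% of all tested genes in that direction. The same 3 had arrays that did not overlap and lay lower, against 33.8% of all tested genes. For homozygous minus heterozygous cells 4.09% of all tested genes passed; 2 of the 4 simple keratins, Krt7 and Krt8, lay lower at an unadjusted p under 0.05 (18.2% of all), and 3 of 4 did not overlap and lay lower (34.2% of all). These comparisons share the homozygous arrays. The tested members are those bright enough for a test, so these counts are a description and support nothing.

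Leaving out a homozygous array left 1 array in that group, so only log2 differences are given for these fits. Without homozygous array 2, the differences from wild-type cells were -8.19 for Krt7, -3.07 for Krt8, 1.54 for Krt18, -1.14 for Krt19 and -2.21 for Krt14. Without array 1 they were -3.35, -1.45, -0.64, -4.27 and -1.25 in the same order. For Krt7, Krt8 and Krt19 these were also the lowest and highest values over all alternatives, and Krt14 ranged from -2.32 to -1.25. Krt14 reached the limit for testing only through the other groups, so its values are a description. No keratin passed limma's test in the alternatives that kept both homozygous arrays.

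Heterozygous and wild-type means were within 0.35 of each other on the log2 scale in all 5 tested keratins. The log2 difference of heterozygous minus wild-type cells was -0.35 for Krt7, -0.11 for Krt8, 0.022 for Krt18, -0.31 for Krt19 and -0.33 for Krt14, and 0 of 5 passed limma's test (adjusted p = 1.00 each, after rounding), as did 0% of all tested genes. At an unadjusted p under 0.05 the count was 0 of 5 members and 0.65% of all genes. Arrays of Krt7 and Krt14 did not overlap and lay lower, against 12.8% of all genes. The 95% interval was -1.27 to 0.61 for Krt14 and -4.18 to 3.48 for Krt7, so the fit, whose error is pooled with the homozygous pair, bounds these differences loosely.

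**Figure D4:**
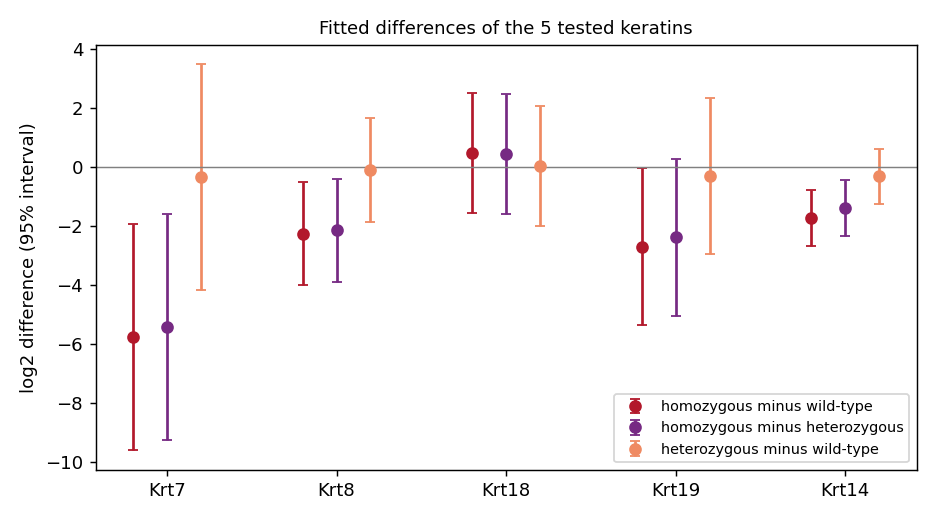
Log2 differences of the 5 tested keratins by limma, with 95% intervals, shown for the 3 comparisons. Krt7, Krt8 and Krt14 lie under 0 with their intervals in both comparisons of homozygous cells, Krt19 does so against wild-type cells only, Krt18 straddles 0, and all 5 heterozygous differences are near 0. The error is pooled over the groups, though the homozygous pair held 72.6% of the pooled spread over all tested genes. Intervals of the homozygous comparisons may thus be too narrow.

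Beyond the members, most other keratins were too dim to test. Of 38, 9 were at or under background in all 6 arrays and 7 were tested, of which 0 passed in any comparison; for homozygous minus wild-type cells their median log2 difference was -0.12, against -0.09 for all tested genes (0.19 and 0.22 with arrays centred on their medians). The brightest were Krt10, a type I keratin of differentiating epidermis, with 437 and 258 in homozygous arrays against 440 and 303 in wild-type arrays; Krt42, with 219 and 195 against 397 and 252; and Krt80, a type II keratin, with 208 and 216 against 136 and 173. Other intermediate filament genes had 8 of 16 tested, 0 called and a median of 0.19 (0.49 with centred arrays). Vim, the vimentin of mesenchymal and surface epithelial cells, had 29983 and 28014 in homozygous arrays, 29861 and 28426 in heterozygous arrays, and 22650 and 32125 in wild-type arrays. Its signal was thus about level in the same arrays in which Krt7 differed most. Lmna, the nuclear lamin A/C, had 7087 and 5561 in homozygous arrays against 2683 and 3620 in wild-type arrays, and Lmnb1 3693 and 3337 against 2212 and 3845. Prph, the peripherin of neurons, chosen after its values were seen, had 54.6 and 20.4 in homozygous arrays, 368 and 803 in heterozygous arrays, and 1011 and 361 in wild-type arrays. Its log2 difference from wild-type cells was -4.18 ± 0.75 (adjusted p = 0.0566 by limma), and it too was under the limit for testing in the homozygous arrays.

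Genes that tie keratins to junctions had 13 of 15 tested, with 0 called for homozygous minus wild-type cells (median -0.25, or 0.056 with centred arrays). For homozygous minus heterozygous cells 1 of the 13, Dsc2, was called, against 4.09% of all tested genes. This desmosomal cadherin had 53.3 and 65.7 in homozygous arrays against 250 and 200 in heterozygous arrays. It fell by 1.92 ± 0.26 on the log2 scale (adjusted p = 0.0370 by limma). This call held in 7 of 15 alternatives (adjusted p 0.00884 to 0.396); it was lost without either heterozygous array (0.171 and 0.241) or either wild-type array (0.104 each), and with the replicate block (0.0755). The homozygous geometric mean of Dsc2 was under the limit for testing, which it passed through the other groups. Against wild-type arrays, at 200 and 161, the difference was -1.60 (adjusted p = 0.0502). The brightest linkers were Pkp2, a plakophilin of the desmosomal plaque, with 1430 and 2402 in homozygous against 3506 and 3424 in wild-type arrays; Pkp4, with 3590 and 2535 against 1416 and 2013; and Macf1, a spectraplakin, with 1681 and 2406 against 2299 and 2494.

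Epithelial transcription factors and their antagonists had 10 of 22 tested and 0 called (median 0.29 for homozygous minus wild-type cells, or 0.60 with centred arrays). Cebpb had 12142 and 12190 in homozygous against 11072 and 15401 in wild-type arrays, and Sp1, which binds GC boxes, 3425 and 3292 against 2116 and 2811. Snai2, a Snail-family repressor that binds E-boxes, had 2284 and 2460 in homozygous arrays, 1293 and 922 in heterozygous arrays, and 910 and 1208 in wild-type arrays. The log2 difference of Snai2 from wild-type cells was 1.18 ± 0.29 (adjusted p = 0.0838 by limma), so it did not pass. Other Snail and ZEB genes of the list differed less: Zeb1 by 0.18 and Zeb2 by 0.57 (adjusted p = 0.836 and 0.423 by limma), and Snai1, which had no test, by -0.15. A link of these genes to the E-boxes of the keratin windows was not tested.

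Genes of keratin modification and turnover had 6 of 12 tested and 0 called (median -0.34, or -0.036 with centred arrays). Hspb1, a small heat shock protein that binds keratin filaments, had 5411 and 12884 in homozygous against 18361 and 18737 in wild-type arrays, Ywhaz, a 14-3-3 protein, 20097 and 16738 against 14717 and 15866, and Stub1, a ubiquitin ligase, 6149 and 4487 against 4255 and 5631. Cornified envelope genes, which mark stratified differentiation, had 4 of 13 tested and 0 called (median 1.36, or 1.67 with centred arrays). Ivl, involucrin, had 221 and 347 in homozygous against 80.6 and 90.1 in wild-type arrays. Sprr1a had 67.5 and 5129 against 245 and 152, so it was high in homozygous array 2 only, and Sbsn had 772 and 2067 against 1820 and 1467.

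**Figure D5:**
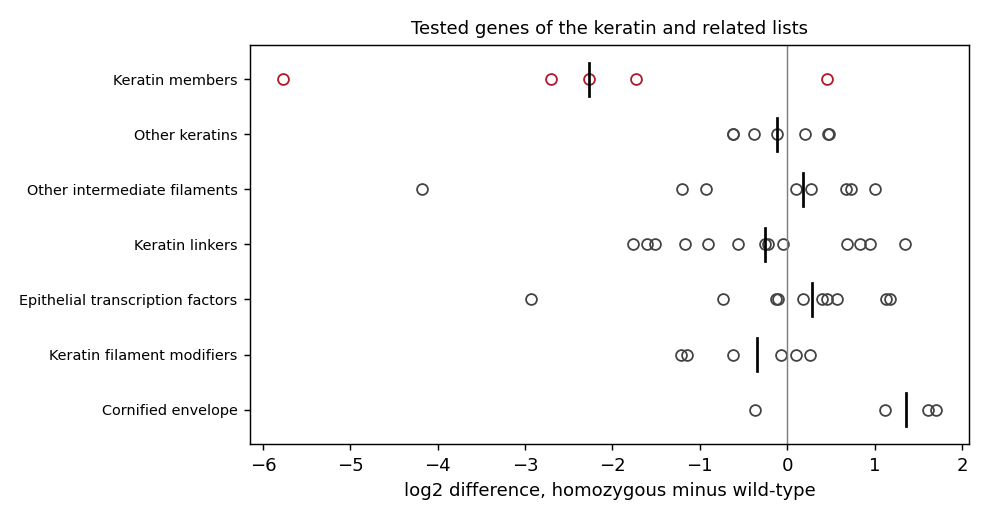
Log2 difference of homozygous minus wild-type cells for each tested gene of the keratin members, the other keratins and the 5 related lists, with a bar at each median. The 5 tested keratin members run from -5.77 to 0.45, while the other keratins lie within 1 of 0.

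By the pattern of log2 signals raised to background over the 6 arrays, the genes most like Krt7 were Wdr19, Cldn3 and Cfap161 (Pearson r 0.999, 0.999 and 0.998). Cldn3, a claudin of epithelial tight junctions, had 12.1 and 380 in homozygous arrays against 3818 and 3491 in wild-type arrays. Most like Krt8 were Zfp949, Mcur1 and Syt14 (0.997, 0.996 and 0.995), and most like Krt19 were Cdon, Nipsnap3b and Sh3d19 (0.995, 0.989 and 0.989). Most like Krt18 were Snx5, Psma1 and Itga6, with r of 0.990, 0.987 and 0.987. Itga6, the integrin chain of hemidesmosomes, had 6618 and 1492 in homozygous arrays, 3004 and 1749 in heterozygous arrays, and 2009 and 2949 in wild-type arrays, the same order of arrays within each pair as Krt18. No other member was among the 3 nearest genes of any simple keratin. With Krt7, r was 0.981 for Krt14 (rank 191 among the genes compared), 0.948 for Krt8 (rank 686), 0.426 for Krt19 (rank 4660) and -0.618 for Krt18 (rank 7999). These values rest largely on the homozygous arrays and are a description, with no test.

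Markers of several cell types moved with the homozygous cells beside the keratins. General epithelial markers were above background in both arrays for 1 of 8 genes in homozygous cells, against 8 in heterozygous and 7 in wild-type cells, and their summed signal was 204 and 669, against 6099 and 4918, and 5353 and 5799. Epcam and Spint1 of this list fell in homozygous against wild-type cells by limma (adjusted p = 0.0136 and 0.0419), and both had a homozygous geometric mean under the limit for testing, which they passed through the other groups. They were 2 of 5 tested, against 2.67% called over all tested genes. Macrophage markers summed to 205 and 667 in homozygous arrays, against 4423 and 4942 in heterozygous and 2508 and 2238 in wild-type arrays, with Lyz2 under background in both homozygous arrays. Endothelial markers summed to 98.6 and 122, against 2223 and 2461, and 3213 and 2727, with Icam2 under background in both homozygous arrays. Kdr and Icam2 made up most of the wild-type sum. The other endothelial markers were dim in wild-type arrays too. Pecam1 had 6.38 and 3.53 in homozygous against 22.5 and 26.9 in wild-type arrays, Cdh5 30.2 and 32.1 against 40.7 and 34.6, and Tek 21.5 and 21.4 against 39.7 and 49.7. Fibroblast markers summed to 22867 and 88185, against 45514 and 58278, and 65395 and 47784. Col1a2 alone gave 21105 in homozygous array 1. Of the 8 fibroblast markers, 6 had a log2 difference from wild-type cells below 0, and 1, Pdgfra, was called. Pdgfra had 130 and 103 in homozygous against 615 and 1056 in wild-type arrays (adjusted p = 0.0326 by limma). Smooth muscle markers summed to 11636 and 46768, against 33430 and 30760, and 20821 and 33479. Granulosa and theca markers summed to 279 and 1405, against 2799 and 4383, and 7601 and 4222, with Cyp17a1 under background in every array. Oocyte markers summed to 125 and 268, against 87.0 and 83.3, and 94.6 and 116, and red blood cell markers to 4.80 and 10.97, against 20.1 and 80.0, and 45.3 and 53.2. The part of these markers in the keratin values was not tested.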

How the data were processed

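Each of 6 arrays has deposited intensities per probe set; the submitters' processing notes name RMA, but the values are linear, with a mean of 500 over the middle 96% of probe sets in every array (the form of MAS 5.0 signals), and log2 was taken of them with no offset. Of 45101 probe sets, 34958 named 1 gene by the platform annotation (932 named several, 9211 none), and 34754 of these were matched by Entrez identifier to RefSeq symbols. The brightest probe set stood for each gene, and genes at or above the 40th percentile were tested (10916). Limma 3.58.1 in R 4.3.3 fitted 3 group means to all 6 arrays (3 residual and 2.26 prior degrees of freedom), with Benjamini-Hochberg adjustment over all tested genes and a threshold of 0.05. The procedure was tested on simulated data that gave each gene the same spread in every group. That setting lacks the wider spread of the homozygous pair, so it does not show how the procedure behaves under it. Arrays have no count depth; their number limits the precision. The members, lists and naming rule (all members; from each list, up to 3 called genes, otherwise the 3 brightest; the 3 most similar genes by Pearson r) were chosen with earlier results of these data known. Alternatives covered scaling, background, filter, probe sets, spread, replicate block and left-out arrays. Python 3.11.15 and matplotlib 3.10.9 made the figures.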

Additional observations from a re-analysis of the deposited data

How the results depend on the processing

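The count of keratins that passed was 0 in every comparison under all alternatives that kept both homozygous arrays; leaving out 1 array at a time gave 0 to 3 for homozygous minus wild-type and 0 to 3 for homozygous minus heterozygous cells. The count over all genes was far less steady. For homozygous minus wild-type cells it was 291, and 605 with signals raised to background, 182 with the mean of all probe sets, 0 with no filter, with only the 2 groups compared, with the replicate block, and with wild-type array 2 and heterozygous array 1 both left out, and 0 to 2663 with 1 array left out. For homozygous minus heterozygous cells it was 446, and in the same order 731, 258, 17, 9, 19 and 0, with 293 under a spread differing between groups and 0 to 2841 with 1 array left out. For heterozygous minus wild-type cells it stayed at 0. Of 237 alternative values for the 5 tested keratins, 9 changed sign, all of them with arrays left out and none past the threshold. Of 135 for the untested ones, 13 changed sign (Krt5, Krt15, Krt17 and Krt20), 12 with arrays left out and 1 with the mean of all probe sets, where Krt17 was -1.34 against 0.0045 for heterozygous minus wild-type cells. Krt18 ranged from -0.64 to 1.54 for homozygous minus wild-type cells, from -0.66 to 1.52 for homozygous minus heterozygous cells and from -0.46 to 0.51 for heterozygous minus wild-type cells, with -0.033 without wild-type array 1 in the first and -0.38 without heterozygous array 1 in the last. In the last comparison Krt8 was 0.46 without wild-type array 2, 0.30 without heterozygous array 2 and 0.054 with wild-type array 2 and heterozygous array 1 both left out, within -0.68 to 0.46 with 1 array left out, and Krt19 was 0.21 without heterozygous array 2, within -0.84 to 0.21. The cause was not tested. Centring arrays on their medians put the median of all genes at 0.22, against -0.09, for homozygous minus wild-type cells; Krt18 was then 0.76 and Krt7 -5.46. The labels do not say whether arrays with the same replicate number share anything else. Deviations of same-numbered arrays correlated at -0.10 (homozygous and wild-type), -0.30 (heterozygous and wild-type) and 0.16 (homozygous and heterozygous). With the replicate block the adjusted p of Krt7 by limma was 0.133 for homozygous minus wild-type cells. A crossed pairing of wild-type and heterozygous arrays, chosen after seeing the data, gave 0 calls.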
